A study of Saccharomyces cerevisiae with 4 samples.

Results

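A set of 8 genes, of the 353 named by the array annotation, encodes the phosphorelay and kinases of the high osmolarity glycerol (HOG) pathway of budding yeast. They were taken by gene symbol, with earlier results of these data known. YPD1 (YDL235C), SSK1 (YLR006C), SSK2 (YNR031C) and SSK22 (YCR073C) made up the phosphorelay branch, and STE11 (YLR362W), STE20 (YHL007C) and STE50 (YCL032W) the STE branch. HOG1 (YLR113W) lies downstream of both branches. Each gene had 2 features, so the members held 16 of the 896 features of a 2-colour array devoted to cell wall genes.

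The study consisted of 4 such arrays of a single kind. On each of them total RNA from the haploid Saccharomyces cerevisiae strain BY4741, left untreated, of mating type a and known to lack HIS3, LEU2, MET17 and URA3, was labelled with both Cy3 and Cy5. The cells grew in rich medium at 24 °C, were diluted from an overnight optical density of 0.8 to 1 back to 0.2, and were harvested after 6 h. No osmotic stress or other treatment was applied, and the labels do not say whether separate cultures were used. The p-values therefore measure the spread between 4 arrays, which may be technical. With the same RNA in both channels the ratio is a measure of error and not of expression, and it gives no level against which strain or mating type markers could be checked.

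The pathway lets cells survive a rise in external osmolarity. In the phosphorelay branch the membrane histidine kinase Sln1 passes phosphate through Ypd1 to the response regulator Ssk1, which when unphosphorylated activates the paralogous kinase kinase kinases Ssk2 and Ssk22. In the other branch Ste20, a p21-activated kinase, activates the kinase kinase kinase Ste11 together with its adaptor Ste50, which also serve mating and filamentous growth. Both branches activate the kinase kinase Pbs2, which phosphorylates the MAP kinase Hog1, and Hog1 drives glycerol production and stress transcription.

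Values below are log2 ratios minus the median of their array, unless called deposited. Higher and lower refer to that median and to the sign of the deposited ratio. Which dye was its numerator is not given in the sources at hand. The array medians of the deposited values were -0.058, -0.25, -0.19 and -0.24, so centring moved the median of the 345 tested genes from -0.23 to -0.043. Arrays 1 to 4 held values for 830, 809, 818 and 840 features, and their number limits the precision.

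HOG1 lay above the array median on all 4 arrays, and its duplicate features agreed more closely than those of any other member. Its first feature read 0.44, 0.75, 0.56 and 0.49 on arrays 1 to 4. Its second read 0.35, 0.73, 0.61 and 0.48. All 8 values were also above 0 as deposited, as ratios of 1.18 to 1.42. The duplicates differed by 0.088, 0.028, 0.053 and 0.011, a mean of 0.045, and 41 of the 341 genes tested with 2 features had a smaller mean difference. None of the values was missing and none was a ratio of small whole numbers. The gene mean was 0.55 ± 0.148 (SD, n = 4), a departure of 1.46-fold, with a 95% interval from limma of 0.32 to 0.78 and an adjusted p of 0.0347.

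HOG1 was thus the 1 member of 8 called higher at an adjusted p of 0.05 in limma, and 0 were called lower. Over the 345 genes tested, 86 were called, which was 24.9%, with 10.7% higher and 14.2% lower. At an unadjusted p of 0.05, 4 of 8 members passed, against 41.4% of all genes. The departure of HOG1 was of ordinary size for this array, since 74.5% of tested genes had a smaller absolute mean and 24.9% a smaller SD between arrays. With 3 arrays the call ended: without array 1, 2, 3 or 4 the mean of HOG1 was 0.60, 0.49, 0.54 or 0.57, with adjusted p-values from limma of 0.0719, 0.0858, 0.0964 and 0.0965. In those fits 0, 0, 1 and 0 genes were called in all.

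The genes of the STE branch lay below the array median by small amounts. STE11 read -0.21, -0.14, -0.27 and -0.20 on arrays 1 to 4, the average of its features, and no array reached 0. Its mean was -0.20 ± 0.055 (SD, n = 4), and its SD was the 18th from the smallest among 345. The SD was 0.0853 as deposited and 0.106 with each of 8 blocks of adjacent rows centred. Within the gene the first feature was steadier than the second. The first feature had a mean of -0.12 with an SD of 0.0161 and the second a mean of -0.29 with an SD of 0.102, and the first lay above the second on all 4 arrays. The mean difference between them was 0.16 ± 0.0961 (SD, n = 4), close in size to the departure of the gene itself.

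STE50, the adaptor, read -0.43, -0.43, -0.088 and -0.17 on arrays 1 to 4. Arrays 1 and 2 lay lower than arrays 3 and 4, and all 4 lay below 0. Its mean was -0.28 ± 0.178 (SD, n = 4). STE20 read -0.40, -0.37, 0.091 and -0.25, and array 3 was the only one above 0. On that array its features read 0.24 and -0.056, so the sign rested on the first feature. Its mean was -0.23 ± 0.226 (SD, n = 4). Neither was called, at limma adjusted p-values of 0.100 for STE50 and 0.192 for STE20, nor was STE11, at 0.0804.

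Of the 24 values of the STE branch 23 lay below the array median, against 1648 of 3297 over all features. These 24 values come from 3 genes and 6 features on the same arrays, so they are not independent. The 95% intervals from limma were -0.37 to -0.035 for STE11, -0.53 to -0.025 for STE50 and -0.53 to 0.063 for STE20. As deposited, without centring, the means were -0.39, -0.46 and -0.42, and all 3 were called lower, at adjusted p-values of 0.0236, 0.0278 and 0.0498. Over all genes 112, or 32.5%, were then called, 26.4% lower and 6.09% higher.

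**Figure D1:**
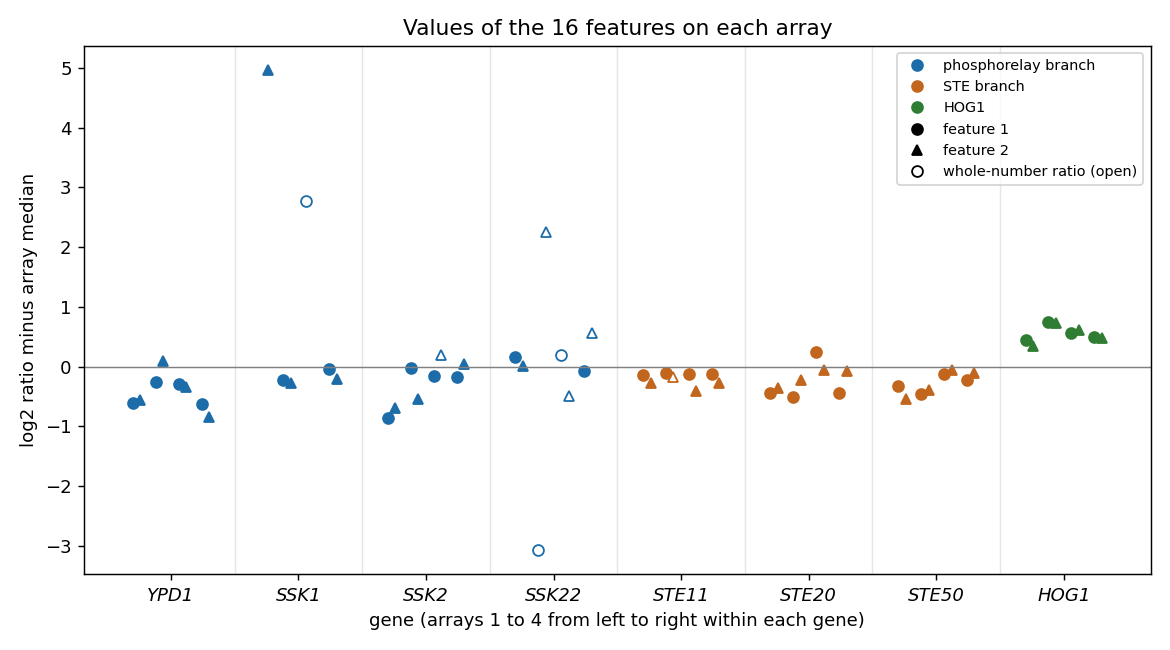
Each point is the log2 ratio of 1 feature minus the median of its array, with arrays 1 to 4 from left to right within each gene, circles for the first feature, triangles for the second and open symbols for ratios of whole numbers up to 10. The 8 HOG1 values lie between 0.35 and 0.75, those of the STE branch between -0.54 and 0.24, and those of SSK1 and SSK22 reach 4.96 and -3.07.

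In the phosphorelay branch YPD1, the phosphotransfer protein, lay below the median as the STE genes did. It read -0.59, -0.084, -0.32 and -0.74 on arrays 1 to 4, below 0 on each, and arrays 1 and 4 were the lowest. On array 2 its features straddled the median, at -0.25 and 0.085. The mean was -0.43 ± 0.290 (SD, n = 4), the lowest of the 8 members, with a 95% interval of -0.79 to -0.073 and a limma adjusted p of 0.0804. As deposited the mean was -0.62 and the gene was called lower, at an adjusted p of 0.0307. No value of YPD1 was missing or a whole-number ratio.

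SSK2 read -0.78, -0.28, 0.012 and -0.067, so array 1 carried most of the departure. Its features differed by 0.17, 0.53, 0.35 and 0.21 on the 4 arrays. The second feature gave a deposited log2 ratio of exactly 0 on array 3, a ratio of 1. The mean was -0.28 ± 0.354 (SD, n = 4), with a 95% interval of -0.70 to 0.15 and a limma adjusted p of 0.262. Without array 1 it was -0.11.

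SSK1, the response regulator, had the widest spread of the members. On array 1 its first feature was missing and its second read 4.96, the highest of the 830 values of that array. The deposited value, 4.9069, corresponds to a ratio of 30 to 1. On array 3 the second feature was missing and the first read 2.77, the 7th highest of 818, from a deposited value of 2.585, a ratio of 6 to 1. On arrays 2 and 4 both features were present, and they read -0.22 and -0.28, then -0.033 and -0.22.

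The high and low arrays of SSK1 were therefore also those with 1 and with 2 features present. The gene values were 4.96, -0.25, 2.77 and -0.12, with a mean of 1.84 ± 2.51 (SD, n = 4), the 3rd largest SD among 345 genes. The 95% interval from limma ran from -0.95 to 4.63, at an adjusted p of 0.262, and the mean fell to 0.80 without array 1. Its mean duplicate difference, 0.12, was close to the median of 0.113 over genes, but it came from arrays 2 and 4 alone. Among all genes with 2 features, 82 values stood alone because their duplicate was missing. Their median absolute log2 ratio was 1.50, and 72.0% lay beyond 2-fold. Of the 2568 values whose duplicate was present, the median was 0.33 and 10.5% lay beyond 2-fold.

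In SSK22, the paralog of SSK2, the average concealed a disagreement between features. On array 2 its features read -3.07 and 2.25, from deposited ratios of 1 to 10 and 4 to 1. Their difference of 5.32 was the 2nd largest of 311 genes on that array and the 5th largest of 1284 duplicate differences on all arrays. The average of the pair was -0.41. On arrays 1, 3 and 4 the gene values were 0.089, -0.15 and 0.25, and the duplicates differed by 0.15, 0.68 and 0.64.

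The gene mean of SSK22 was -0.057 ± 0.288 (SD, n = 4), with a 95% interval of -0.41 to 0.30 and a limma adjusted p of 0.790. That SD lay near the middle of all genes, with 58.6% of them smaller. Taken apart, the first feature had a mean of -0.70 ± 1.59 and the second of 0.58 ± 1.19 (SD, n = 4), in opposite directions. The interval of the gene mean does not cover this difference between features, and without array 2 the mean was 0.062.

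**Figure D2:**
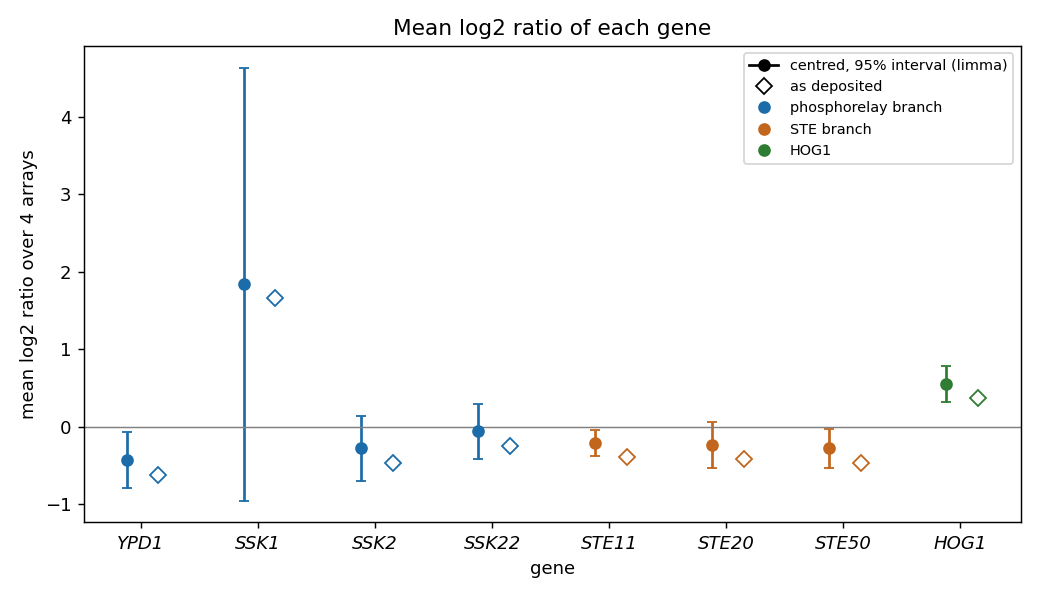
Filled circles show the mean centred log2 ratio of each gene over 4 arrays with its 95% interval from limma, and open diamonds the mean as deposited. The interval of HOG1, 0.32 to 0.78, lies above 0, those of YPD1, STE11 and STE50 lie just below 0 before adjustment for the number of genes, and that of SSK1 spans -0.95 to 4.63.

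The branches differed in how many of their values were whole-number ratios. A value was counted so where both whole numbers were at most 10 and the log2 ratio matched within 0.00005. This held for 7 of 30 values of the phosphorelay branch, or 23.3%. In the STE branch it held for 1 of 24, or 4.17%, and for HOG1 for 0 of 8. The share was 11.3% over the 3297 values of the table, and 0.152% after all values were shifted by 0.02. Of the 7, SSK22 held 5, SSK1 held 1 and SSK2 held 1, so YPD1 had none. The value in the STE branch was that of the second STE11 feature on array 2, a ratio of 3 to 4. The ratio of 30 to 1 of SSK1 lay beyond the limit of 10 and was not counted.

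These values were not spread evenly over arrays. Among the 16 member features 0, 3, 4 and 1 were whole-number ratios on arrays 1 to 4, and over the whole table the counts were 59, 117, 129 and 68. Missing values were few. The phosphorelay branch had 2 of 32, or 6.25%, both in SSK1, and the STE branch and HOG1 had none, against 8.01% over all features. Over the table, whole-number ratios had a median absolute log2 ratio of 0.76, and 39.7% lay beyond 2-fold. For the other values these were 0.33 and 10.2%. Signal intensities were not used here, so whether these features were faint was not tested.

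The spread between arrays was widest in the phosphorelay branch. The median SD between arrays was 0.322 for the phosphorelay branch, with members from 0.288 to 2.51, and 0.178 for the STE branch, with members from 0.055 to 0.226. For HOG1 it was 0.148. The order of the STE branch and HOG1 turned without array 3, at 0.0790 and 0.179, and with each of 8 blocks of adjacent rows centred, at 0.170 and 0.254. Over all 345 genes the median was 0.236. It was 0.173 in the 209 genes with neither a missing nor a whole-number value and 0.581 in the other 136. Duplicate differences averaged 0.639, 0.182 and 0.045 for the phosphorelay branch, the STE branch and HOG1. Without array 2, which holds the SSK22 pair, the average of the phosphorelay branch was 0.269. Branches of 4, 3 and 1 genes were described and not tested against each other.

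**Figure D3:**
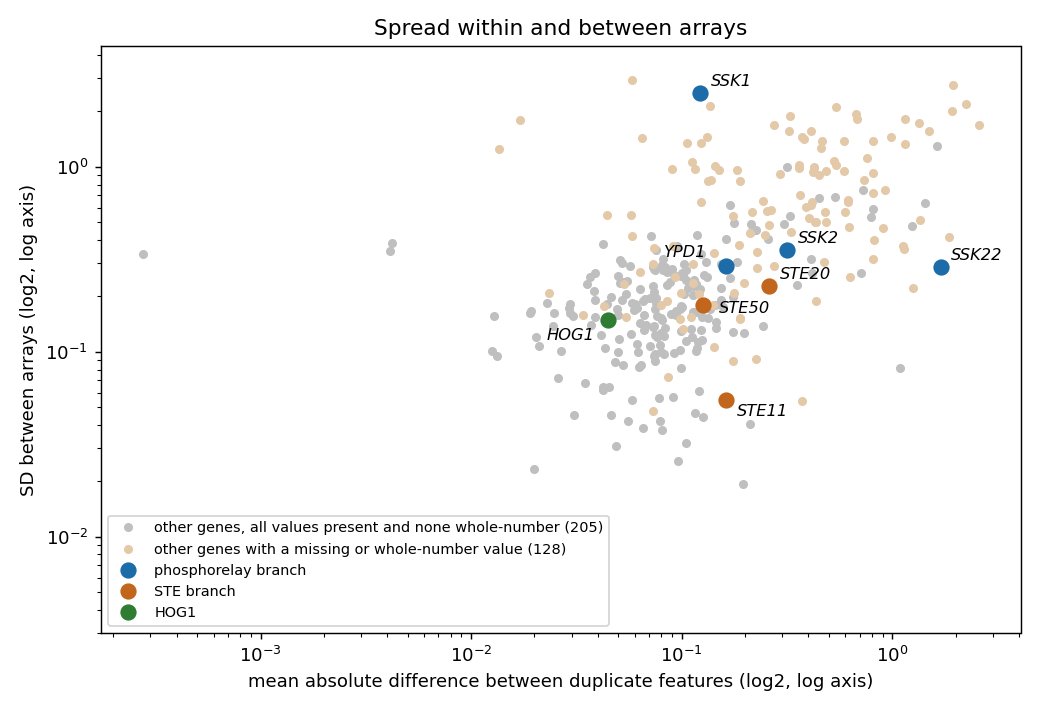
For each gene with 2 features the mean absolute difference between duplicates is set against the SD between arrays, both on log axes, with the 8 members in colour and the other genes split by whether any value was missing or a whole-number ratio. SSK1 lies high at 2.51 with a duplicate difference of 0.12, SSK22 lies far right at 1.70 with an SD of 0.288, and HOG1 lies at 0.045 and 0.148.

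Averaged over members, the phosphorelay branch read 0.92, -0.26, 0.58 and -0.17 on arrays 1 to 4, high on the arrays where SSK1 was high. Its mean was 0.27 ± 0.576 (SD, n = 4), but 0.051, 0.44, 0.16 and 0.41 without arrays 1, 2, 3 and 4. It was 0.084 as deposited, and the median over members in place of the mean gave -0.17. Without SSK1, a split made after its values were seen, it was -0.43, -0.26, -0.15 and -0.19, with a mean of -0.26 ± 0.122. The STE branch read -0.35, -0.31, -0.089 and -0.21, with a mean of -0.24 ± 0.117 (SD, n = 4). With SSK1 left out, the means of the phosphorelay and STE branches differed by less than the SD of either between arrays. With SSK1 kept, the difference was still below the SD of the phosphorelay branch but above that of the STE branch. HOG1, at 0.55 ± 0.148 (SD, n = 4), lay above the means of both branches.

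By mean the members ranked SSK1, HOG1, SSK22, STE11, STE20, STE50, SSK2 and YPD1. HOG1 lay above each member other than SSK1 on all 4 arrays. The difference was 0.98 ± 0.172 against YPD1, 0.75 ± 0.131 against STE11 and 0.78 ± 0.253 against STE20. It was 0.83 ± 0.240 against STE50, 0.83 ± 0.315 against SSK2 and 0.61 ± 0.425 against SSK22 (SD, n = 4). Over 4 arrays a two-sided exact sign-flip test cannot give a p below 0.125, so that test could not have passed for any of these differences, and they are given as values. SSK1 lay above HOG1 on 2 of 4 arrays. From SSK22 down to YPD1, neighbours in the order differed by 0.15 or less on average, and each of these differences was smaller than its SD. Of the 8 genes 4 had the same sign on all 4 arrays, against 51.3% of all tested genes.

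**Figure D4:**
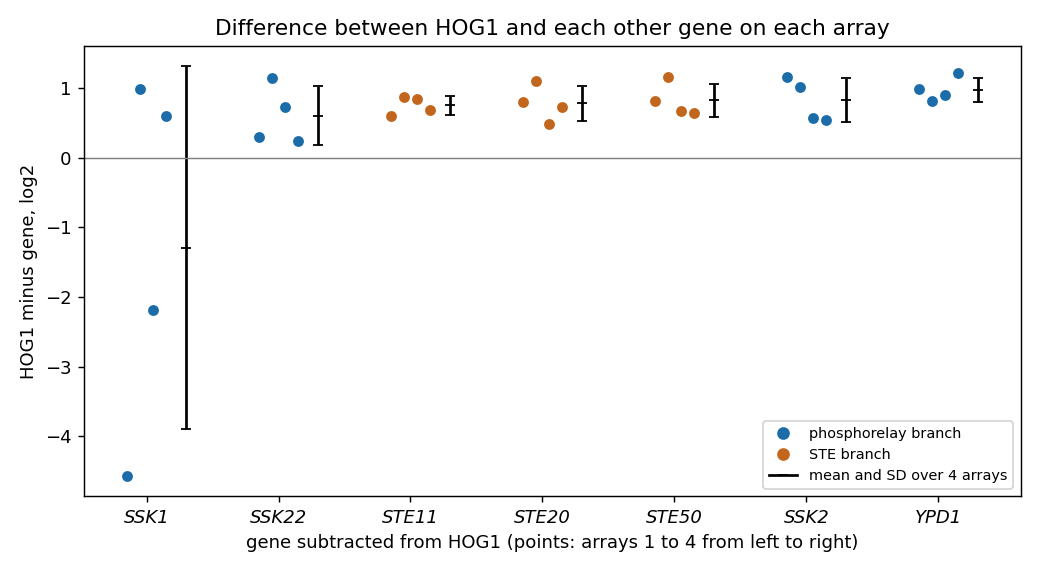
Points show the log2 ratio of HOG1 minus that of each other gene on arrays 1 to 4, from left to right, and black marks the mean and SD. All points lie above 0 except the SSK1 differences of -4.57 on array 1 and -2.19 on array 3.

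The neighbours of these genes in the pathway were read from 4 lists of 49 genes, of which 19 were tested. Of these 19, 2 were called higher and 0 lower in limma, or 10.5% against 24.9% over all genes, and their median was -0.024. SLN1, the osmosensing histidine kinase upstream of Ypd1, had the largest absolute mean of 5 upstream genes, at -1.22 ± 1.34 (SD, n = 4), and 0 of the 5 were called. It read -1.06, -0.24, -0.42 and -3.16, and on array 4, the lowest, its first feature was missing. PBS2, the kinase kinase that phosphorylates Hog1, had the largest absolute mean of 5 core genes and regulators, at 0.84 ± 1.26 (SD, n = 4), and 0 of the 5 were called. It read 1.26, -0.26, -0.083 and 2.44, high on arrays 1 and 4. On array 4 its features read 3.24 and 1.63, and 1 value of the first feature was a whole-number ratio. The limma adjusted p-values of SLN1 and PBS2 were 0.182 and 0.298. As deposited, 1 of the 5 core genes and regulators was called lower, PTP3 at -0.49 (limma adjusted p = 0.0210). None of the upstream genes was called then, and 26.4% of all genes were called lower. SLN1, SSK1 and PBS2 each had an SD above 1 between arrays, as did CLA4 of the upstream list, at 1.07. All of these had a missing or whole-number value. The upper quartile of the SD was 1.06 over the 136 such genes and 0.512 over all 345. On array 4 SLN1 and PBS2 lay on opposite sides of the median.

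Among 5 targets and effectors, HSP12, a small membrane-stabilising stress protein, and DDR2, a stress-induced gene, were called higher and 0 were called lower. HSP12 read 0.31, 0.41, 0.74 and 0.47, with a mean of 0.48 ± 0.183 (SD, n = 4) and a limma adjusted p of 0.0389. DDR2 read 0.81, 0.54, 0.22 and 0.99, with a mean of 0.64 ± 0.335 (SD, n = 4) and an adjusted p of 0.0478. As deposited neither was called, at limma adjusted p-values of 0.0740 and 0.0915. Called lower there were SKO1, a repressor that Hog1 phosphorylates, at -0.50, and MSN1, a transcription factor, at -0.46, so the list had 0 higher and 2 lower. Of 4 mating and filamentous partners 0 were called. KSS1, the MAP kinase of filamentous growth, had the largest absolute mean there, at 1.04 ± 0.500 over the 3 arrays with a value (limma adjusted p = 0.0597). On array 3 its features read 2.19 and 1.05, and 2 values of the first feature were whole-number ratios.

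The cell wall integrity cascade, another MAP kinase pathway on the array, had 15 tested genes of 16 present. WSC2, a cell surface sensor, and MKK2, a kinase kinase, were called higher, and the kinases PKC1, BCK1 and KDX1 lower, 33.3% in all against 24.9% over all genes. Its median SD of 0.188 lay between those of the phosphorelay branch and HOG1, and whole-number ratios made up 9 of its 120 values, or 7.50%. The difference between the pathways was not tested.

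The genes most like HOG1 over the 4 arrays, by Euclidean distance between centred gene values among 319 genes with a value on each array, were TOH1 at 0.146, YNL190W at 0.280 and TPI1 at 0.293. TOH1 read 0.34, 0.72, 0.49 and 0.39. TPI1, which encodes the glycolytic triose phosphate isomerase, read 0.60, 0.77, 0.75 and 0.37. For the STE branch the nearest genes were ECM1 to STE11, at 0.137, SRT1 to STE20, at 0.0943, and PNS1 to STE50, at 0.141. BEM2, which encodes a GTPase-activating protein for Rho1, was nearest to YPD1, at 0.203. YPL088W was nearest to SSK2, at 0.213, and YCL049C to SSK22, at 0.128. The latter distance used the SSK22 average on array 2, where its features read -3.07 and 2.25. For SSK1 no gene came close, and the nearest, the chitin synthase gene CHS3, lay at a distance of 2.46.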

How the data were processed

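The deposited table held 1 log2 ratio per feature for each of 4 arrays, which formed 1 group numbered as in the labels. How the authors made these values, including scanner, software, background correction, normalization and dye direction, is not stated in the sources used here. Their log2 scale was inferred from the deposited values, 11.3% of which matched a ratio of whole numbers of at most 10 within 0.00005. Of 896 features, 724 had 1 gene in the platform annotation, and all 724 matched the R64 gene table of RefSeq by Entrez identifier with 0 symbols changed. A further 10 had several genes and 162 had none. No build was named, so no coordinates are printed.

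Each array was centred on its median, the features of each gene were averaged on each array, and the 345 genes present on at least 3 arrays were tested against 0 with limma (lmFit on an intercept, eBayes, two-sided, Benjamini-Hochberg over all 345, threshold 0.05). The prior had 1.38 degrees of freedom. All 8 members passed the filter. The fit was tested on simulated data, in 20 runs of 345 genes with the observed spread. It called 0.386% of genes at a true absolute mean of 0, 6.5% at 0.25, 37.5% at 0.5 and 72.5% at 1. Most departures of 0.25 were thus missed there. In these runs only a minority of genes had a true departure, and the noise was independent between arrays. The rates hold for that setting and give no error rate for calls on the real arrays. The members and gene lists were chosen with earlier results of these data known. Named were the members, in each list the called genes or else the one of largest absolute mean, and the nearest genes by Euclidean distance. CLA4, PTP3, SKO1 and MSN1 are named outside this rule, after their values were seen. The strain markers AGA1, AGA2, MFA1, SAG1 and MET17 were on the array but could not be checked from ratios of the same RNA. AGA2, at 0.71, and MET17, which the strain lacks, at 0.38, were called higher, and SAG1, at -0.33, lower. Their limma adjusted p-values were 0.0248, 0.0347 and 0.0467, and AGA1 and MFA1 were not called. As deposited MET17 was not called, at a limma adjusted p of 0.114, while AGA2 and SAG1 were, at 0.0166 and 0.0164. With features holding missing or whole-number values left out, SAG1 was not called on centred values and MET17 could not be tested. AGA2 held no such value. Alternatives covered centring, scaling, quantile normalization, features kept apart, the number of arrays needed, whole-number limits, robust and weighted fits, and each array left out. Each of 8 blocks of adjacent rows was centred as an alternative chosen after seeing the data. Software was R 4.3.3, limma 3.58.1, Python 3.11.15, pandas 2.3.3 and matplotlib 3.10.9.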

Additional observations from a re-analysis of the deposited data

Results flagged for a closer look

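Of 22 groups of 4 array values examined for the 8 genes and their features, 2 had a value far from the other 3 by the gap to the nearest of them over the range, set against Dixon's 95% critical value. Chance flags about 1 in 20 such groups. The first feature of SSK22 read -3.07 on array 2, where its gap to the nearest value was 0.920 of the range. That value was the deposited ratio of 1 to 10. The first feature of STE20 read 0.24 on array 3, with a gap of 0.893 of the range, while its duplicate read -0.056 there.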

How the results depend on the processing

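No paired analysis was possible because the 4 arrays formed a single group. On the uncentred values YPD1, at -0.62, STE11, at -0.39, STE20, at -0.42, and STE50, at -0.46, were called lower, the STE branch mean was -0.42, and 21 genes were called higher and 91 lower over the table. With features fitted apart, the first YPD1 feature was called lower at -0.45 (limma adjusted p = 0.0457), the second SSK22 feature turned to 0.58, and 157 features were called, 68 higher and 89 lower, of 691 tested. The call of HOG1 held in all 12 estimates from the alternatives that kept 4 arrays (each feature counted apart). Their means were 0.37 to 0.56 and their limma adjusted p-values 0.0209 to 0.0490, the last with blocks of rows centred. HOG1 had no missing or whole-number value, so settings that acted only on such values left its mean at 0.55. Leaving out each array in turn, HOG1 ran from 0.49 to 0.60, SSK22 from -0.16 to 0.062, SSK1 from 0.80 to 2.54 and SSK2 from -0.38 to -0.11, and 0 to 1 genes were called, 0 to 1 higher and 0 lower. Fewer arrays give that test fewer degrees of freedom. Without array 2 the SD of HOG1 was 0.0949, and without array 3 the median SD of the STE branch was 0.0790. The ranges without each array were 0.0949 to 0.179 and 0.0790 to 0.198. Without features holding missing or whole-number values, which left YPD1 and SSK2, the phosphorelay mean was -0.37. Its mean instead of median SD was 0.860, and with whole numbers up to 5 it had 4 such ratios. The cause of these shifts was not tested.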
